A study of Mus musculus with 16 samples.

Results

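Lesions of running mice were compared between day 10 and day 5 after demyelination of the spinal cord. The comparison used the 4 libraries labelled exercise at day 10 (replicates 13, 17, 18 and 19) and the 4 labelled exercise at day 5 (replicates 1, 2, 7 and 12), which are 8 of the 16 libraries of the series. The libraries were chosen by their labels and not by a measured value. The comparison, the gene lists and the tests were chosen with earlier results of these data known. All animals were C57BL/6 mice aged 8-12 weeks whose cord had been injected with lysolecithin, a lipid that dissolves myelin, so no library comes from tissue without a lesion. Exercise animals had free access to a running wheel. Control animals lived with a locked wheel and give 4 libraries at day 10 and 4 at day 5, used here as a second day comparison. All 16 libraries were fitted together, so the control libraries also enter the estimate of spread behind the exercise p-values. The lesion was cut from frozen cord by laser microdissection, its RNA was amplified because little was available, and poly-A selected, strand-specific, single-end libraries were sequenced. The labels do not say that the libraries come from separate animals, and every p-value therefore rests on how far these libraries differ among themselves.

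Lysolecithin lesions of the cord pass through a known sequence. Microglia, the resident macrophages, and monocytes from the blood take up the myelin debris, oligodendrocyte precursors divide and move in, and some of their progeny then mature and form new myelin. In dissected tissue, fewer cells of a type and less RNA per cell cannot be told apart.

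The 4 day 10 libraries held 9773137 to 11089749 counts and the 4 day 5 libraries 8125981 to 10930385. Levels are given as CPM (counts-per-million) after TMM scaling, with day 10 values in the order 13, 17, 18 and 19 and day 5 values in the order 1, 2, 7 and 12. A gene was called when its adjusted p in edgeR's quasi-likelihood test was under 0.05, and rose, fell, higher and lower describe day 10 relative to day 5. Markers of the dissected tissue were present in every exercise library: summed CPM of the myelin list was 32825, 14384, 29082 and 19304 at day 10 and 20437, 14917, 14961 and 17758 at day 5. Markers of red blood cells summed to 0 to 2.93 CPM at day 10 and 0.193 to 6.998 CPM at day 5, and those of skeletal muscle to 3.65 to 4.66 CPM at day 10 and 2.62 to 3.87 CPM at day 5. The mitochondrial ribosomal RNA mt-Rnr2 took 8.51% to 12.32% of the counts at day 10 and 10.91% to 12.94% at day 5. The days separated on the first dimension of a multidimensional scaling (31.4% of the variance among the 8 libraries), with day 10 libraries between -1.18 and -0.558 and day 5 libraries between 0.469 and 1.24. Day 10 replicate 17 stood apart on the second dimension (16.9%), at 1.549 against -0.898 to 0.456 for the other 7 libraries, and had the lowest library weight of the series in limma (0.4476). The authors' own day 10 comparison of exercise with control has no column for this library, per the file headers, and the reason is not given there. Counts over lists are also given without a library, replicate 17 or another, where leaving it out moves a count of 3 or more by over 1.5 times.

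**Figure D1:**
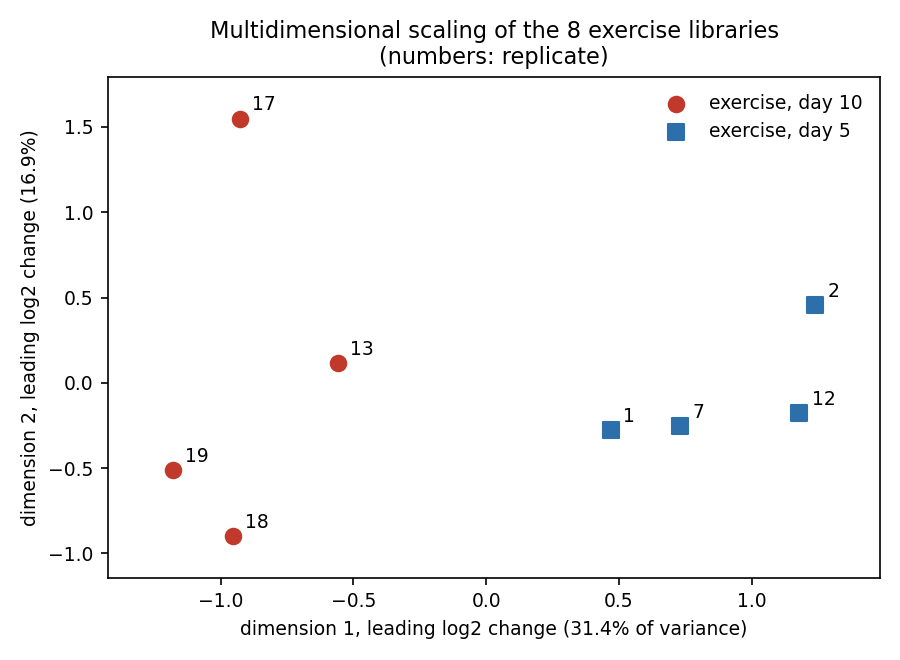
Multidimensional scaling of the 8 exercise libraries. Axes are leading log2 changes, red circles are day 10, blue squares day 5 and numbers the replicate. The days separate along dimension 1, where all day 10 libraries lie below -0.5 and all day 5 libraries above 0.4, and replicate 17 lies apart along dimension 2.

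Of 46078 genes counted, 15096 passed the filter on low counts and were tested. Between the days 1520 were called, 781 higher at day 10 (5.17% of the genes tested) and 739 lower (4.9%), with a median log2 difference of 0.01 over all genes tested. The typical called gene differed by 0.79 on the log2 scale. At least a 2-fold difference was reached by 197 of the higher and 343 of the lower genes. In 1219 of the 1520 called genes, and in 2128 of all 15096 genes tested, no day 10 library overlapped a day 5 library. Without replicate 17 the calls numbered 1843, of which 889 were higher (5.89%) and 954 lower (6.32%). The 2 sets shared 1286 genes, 84.6% of the calls with all libraries and 69.8% of those without replicate 17. Each of the 8 exercise libraries was also left out in turn, and 744 genes, 381 higher and 363 lower, were called in all 8 of these refits. Square brackets below give, for a called gene, the number of these refits in which it was called where that number was under 8. The count of calls moved by more than 1.5 times only without day 5 replicate 7, to 992 (490 higher and 502 lower). A fit of the 8 exercise libraries alone, without the control libraries, called 863 genes. In that fit the counts over the lists described below were lower by over 1.5 times for infiltrating monocytes (4 lower), neurons (6 lower), nuclear genes of oxidative phosphorylation (3 lower), lysosome (2 lower), oxidants and antioxidants (3 lower), myelin (3 higher) and lipid handling (1 higher), among lists with 4 or more calls in a direction. At the shares above a list of 20 genes would hold about 1 called gene in each direction, and a longer list more in proportion. Lists with 1 or 2 calls, and longer lists with few, stand near that background.

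**Figure D2:**
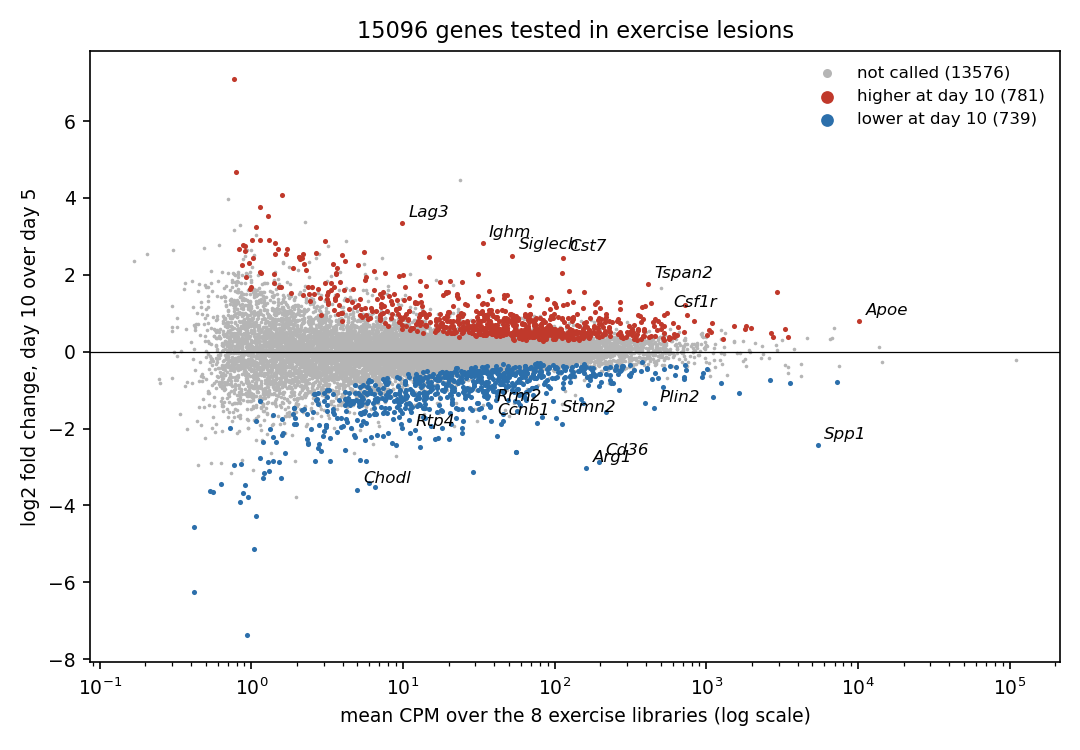
Log2 difference between exercise day 10 and exercise day 5 against mean CPM over the 8 exercise libraries (log scale), one point per gene tested. Red points (781) were called higher at day 10, blue points (739) lower, grey points were not called; 16 genes described in the text are named beside their points.

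Among the lists described here, that of mitosis had the largest share of called genes. Of 53 tested genes of mitosis, 48 fell and none rose, with a median log2 difference of -1.27. Of 41 tested genes of DNA replication, 17 fell and none rose, with a median of -0.73. Ccnb2, a B-type cyclin that drives entry into mitosis, was measured at 10.2, 19.4, 12.8 and 16.2 CPM at day 10 and at 44.4, 31.4, 39.8 and 45.8 CPM at day 5. Its groups did not overlap, and the fitted level at day 10 was 2.76-fold lower (log2 -1.47, SE 0.19, adjusted p = 0.000174). Ccnb1, the other B-type cyclin of mitosis, had 8.76, 25.7, 17.6 and 16.03 CPM at day 10 and 65.3, 41.5, 71.5 and 58.3 CPM at day 5. Replicate 13 was the lowest of the 8 libraries and replicate 17 the highest of day 10 for both cyclins. Ckap2l, a protein of the mitotic spindle, showed the same place of replicate 17: it had 23.7, 60.1, 35.2 and 36.5 CPM at day 10 against 84.9, 83.2, 88.3 and 86.6 CPM at day 5, so that replicate 17 lay nearer to day 5 than any other day 10 library did.

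Genes of DNA replication act before mitosis. Rrm2, a subunit of the enzyme that makes DNA precursors, was at 14.2, 25.8, 19.7 and 20.6 CPM at day 10 and 47.0, 54.5, 53.4 and 63.7 CPM at day 5 (log2 -1.45, SE 0.18, adjusted p = 0.000174). Mcm6, part of the replicative helicase, was at 30.9, 38.6, 23.1 and 26.6 CPM at day 10 and 57.0, 63.0, 60.6 and 66.8 CPM at day 5 (log2 -1.05, SE 0.13). Of the other helicase genes, Mcm7 did not pass (log2 -0.66, adjusted p = 0.0670) and the rest fell. Log2 differences were -0.94 for Mcm2, -0.67 [3 of 8] for Mcm3, -0.96 for Mcm4 and -1.17 for Mcm5. The replication clamp gene Pcna fell at -0.65 and the checkpoint adaptor gene Clspn at -1.90. Of 15 tested G1 cyclins, kinases and inhibitors, Cdkn2d alone was called, lower by 0.65 in 4 of 8 refits. The D-type cyclin genes, which act where a cell commits to divide, did not pass: Ccnd1 was at log2 -0.27, Ccnd2 at 0.15 and Ccnd3 at -0.32.

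The level of the mitosis list, as mean log2 CPM of its tested genes, was 2.75, 3.96, 3.01 and 3.40 in the day 10 libraries and 4.62, 4.36, 4.63 and 4.68 in the day 5 libraries. Replicate 17 was the highest day 10 library here and in the replication list, and the days did not overlap in either. Leaving it out gave 50 lower genes of mitosis at a median of -1.56 and 25 lower genes of replication at -0.92. In the 8 refits the mitosis calls ranged from 43 to 50 and the replication calls from 13 to 25.

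Promoters are shown for 3 of the mitosis genes with a pair of short elements known from promoters of mitotic genes, so that a reader can see where they lie. These are the cell cycle homology element TTTGAA and the CCAAT box, which binds the factor NF-Y. Over the 250 bases before the RefSeq start on either strand, TTTGAA occurred in 17 of 45 mitosis genes with a promoter entry (37.8%), against 10.5% of the 11085 tested genes with an entry. CCAAT occurred in 34 of the 45 (75.6%), against 36.0% of all. In the other lists searched, TTTGAA occurred in 27.3% of interferon, 9.09% of replication, 7.14% of microglial and 5.88% of sterol promoters. Among called mitosis genes its share was 37.5%. The 3 were chosen among called mitosis genes with both motifs and a RefSeq start within 100 bases of the counted gene's start. They have the smallest p among these, with genes of 1 chromosome left out. Capitals mark each motif match on either strand, and no match of one motif overlaps one of the other.
Ccnb2, chr9:70421555-70421804, minus strand: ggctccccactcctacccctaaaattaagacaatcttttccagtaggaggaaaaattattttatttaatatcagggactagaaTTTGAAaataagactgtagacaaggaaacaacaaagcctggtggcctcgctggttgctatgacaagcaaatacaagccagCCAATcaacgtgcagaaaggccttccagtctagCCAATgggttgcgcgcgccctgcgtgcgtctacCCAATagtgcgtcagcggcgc
Hmgb2, chr8:57511593-57511842, plus strand: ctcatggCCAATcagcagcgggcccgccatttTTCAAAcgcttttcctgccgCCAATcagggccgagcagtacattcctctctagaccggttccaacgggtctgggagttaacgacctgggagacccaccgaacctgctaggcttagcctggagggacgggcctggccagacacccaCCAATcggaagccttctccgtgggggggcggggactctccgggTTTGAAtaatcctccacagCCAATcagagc
Ckap2l, chr2:129297213-129297462, minus strand: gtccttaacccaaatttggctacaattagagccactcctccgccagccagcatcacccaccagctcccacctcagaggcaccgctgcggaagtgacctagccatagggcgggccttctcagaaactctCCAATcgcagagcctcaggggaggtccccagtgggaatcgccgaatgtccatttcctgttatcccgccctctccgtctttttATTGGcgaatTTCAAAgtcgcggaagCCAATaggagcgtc
Sequences are RefSeq's, build GRCm38.p6, written 5′ to 3′ on the gene's strand. The Ccnb2 window holds 3 CCAAT boxes, 87, 54 and 21 bases before the start, and 1 TTTGAA, 167 bases before it. The Hmgb2 window holds 4 CCAAT boxes and 2 TTTGAA elements, of which the nearer lies 30 bases before the start. In the Ckap2l window the TTTGAA element also lies 30 bases before the start, between CCAAT boxes at 40 and 14 bases. A match describes letters and is no evidence that a factor bound there. Hmgb2, a chromatin protein of dividing cells, fell at log2 -1.03 (SE 0.15, adjusted p = 0.000366).

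Most genes that mark microglia in their resting, homeostatic state rose. Of 22 tested among 24 listed, 16 rose and none fell, all 22 estimates were positive, and the median log2 difference was 0.87. Siglech, a lectin of microglia (chr7:55768178-55778925, GRCm38), had 100.3, 108, 65.3 and 85.4 CPM at day 10 and 17.5, 11.2, 12.7 and 21.8 CPM at day 5. Every day 10 library lay far above every day 5 library, and the fitted level was 5.64-fold higher (log2 2.5, SE 0.31, adjusted p = 0.000189). Csf1r, the receptor that keeps microglia alive, had 791, 744, 718 and 673 CPM at day 10 and 378, 305, 344 and 429 CPM at day 5, with less spread among the day 10 libraries than in Siglech. P2ry12, the nucleotide receptor by which microglial processes sense injury, had 208, 267, 85.3 and 190.0 CPM at day 10 and 82.8, 46.2, 44.9 and 76.8 CPM at day 5. Its groups did not overlap, but replicate 18 lay close to day 5 replicate 1.

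The days did not overlap in the next 3 genes either. The transcription factor gene Sall1, which holds microglial identity, had 80.5, 79.7, 57.4 and 70.6 CPM at day 10 and 34.4, 24.3, 25.4 and 32.1 CPM at day 5. Tgfbr1, a receptor for TGF-beta, had 571, 550.1, 554 and 529 CPM at day 10 and 293, 224, 244 and 199.5 CPM at day 5 (log2 1.20, SE 0.13, adjusted p = 5.23e-05). Mertk, a receptor for the uptake of dying cells and myelin, had 202, 193, 168 and 185 CPM at day 10 and 98.4, 94.0, 96.8 and 87.8 CPM at day 5. The 4 day 10 libraries lay within a narrow band for both receptors. Slc2a5, a fructose transporter of microglia, rose with the second largest log2 difference of the list, 2.47. Among the members that did not pass were Tmem119 at 0.27, Golm1 at 0.40, Olfml3 at 0.55 and Fcrls at 0.55. Without replicate 17, 14 members rose at a median of 0.80, and the count ranged from 14 to 19 over the 8 refits.

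Microglia depend on TGF-beta and on signals through Csf1r. Of 24 other tested genes of colony-stimulating factor and TGF-beta signalling, 7 rose and 1 fell. Csf1r and Tgfbr1 were counted with the microglial genes instead. Csf3r, the receptor for granulocyte colony-stimulating factor, rose at log2 1.29 (SE 0.14, adjusted p = 5.23e-05), the TGF-beta receptor gene Tgfbr2 at 0.78 and Smad7, the inhibitor that TGF-beta induces, at 0.95. Ski, another inhibitor of the pathway, rose at 0.47, and the integrin gene Itgb5 at 0.60. Itgav, the partner subunit of Itgb5, fell at -0.39 and was called in 4 of 8 refits. The ligand gene Tgfb1 was at 0.17 and did not pass. Among 14 tested checkpoint and co-stimulatory molecules, 4 rose and 1 fell. Lag3, an inhibitory receptor that binds MHC class II, had 19.4, 15.7, 28.7 and 8.32 CPM at day 10 and 1.26, 1.90, 2.60 and 1.38 CPM at day 5. It was low at day 5 in every library and, among genes averaging at least 5 CPM at either day without overlap, rose the most (log2 3.34, SE 0.37, adjusted p = 5.23e-05). The co-stimulatory genes Cd86 and Cd83 rose at 1.05 and 0.91, and the checkpoint gene Vsir at 0.95. Lgals9 fell at -0.63 and was called in 2 of 8 refits.

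**Figure D3:**
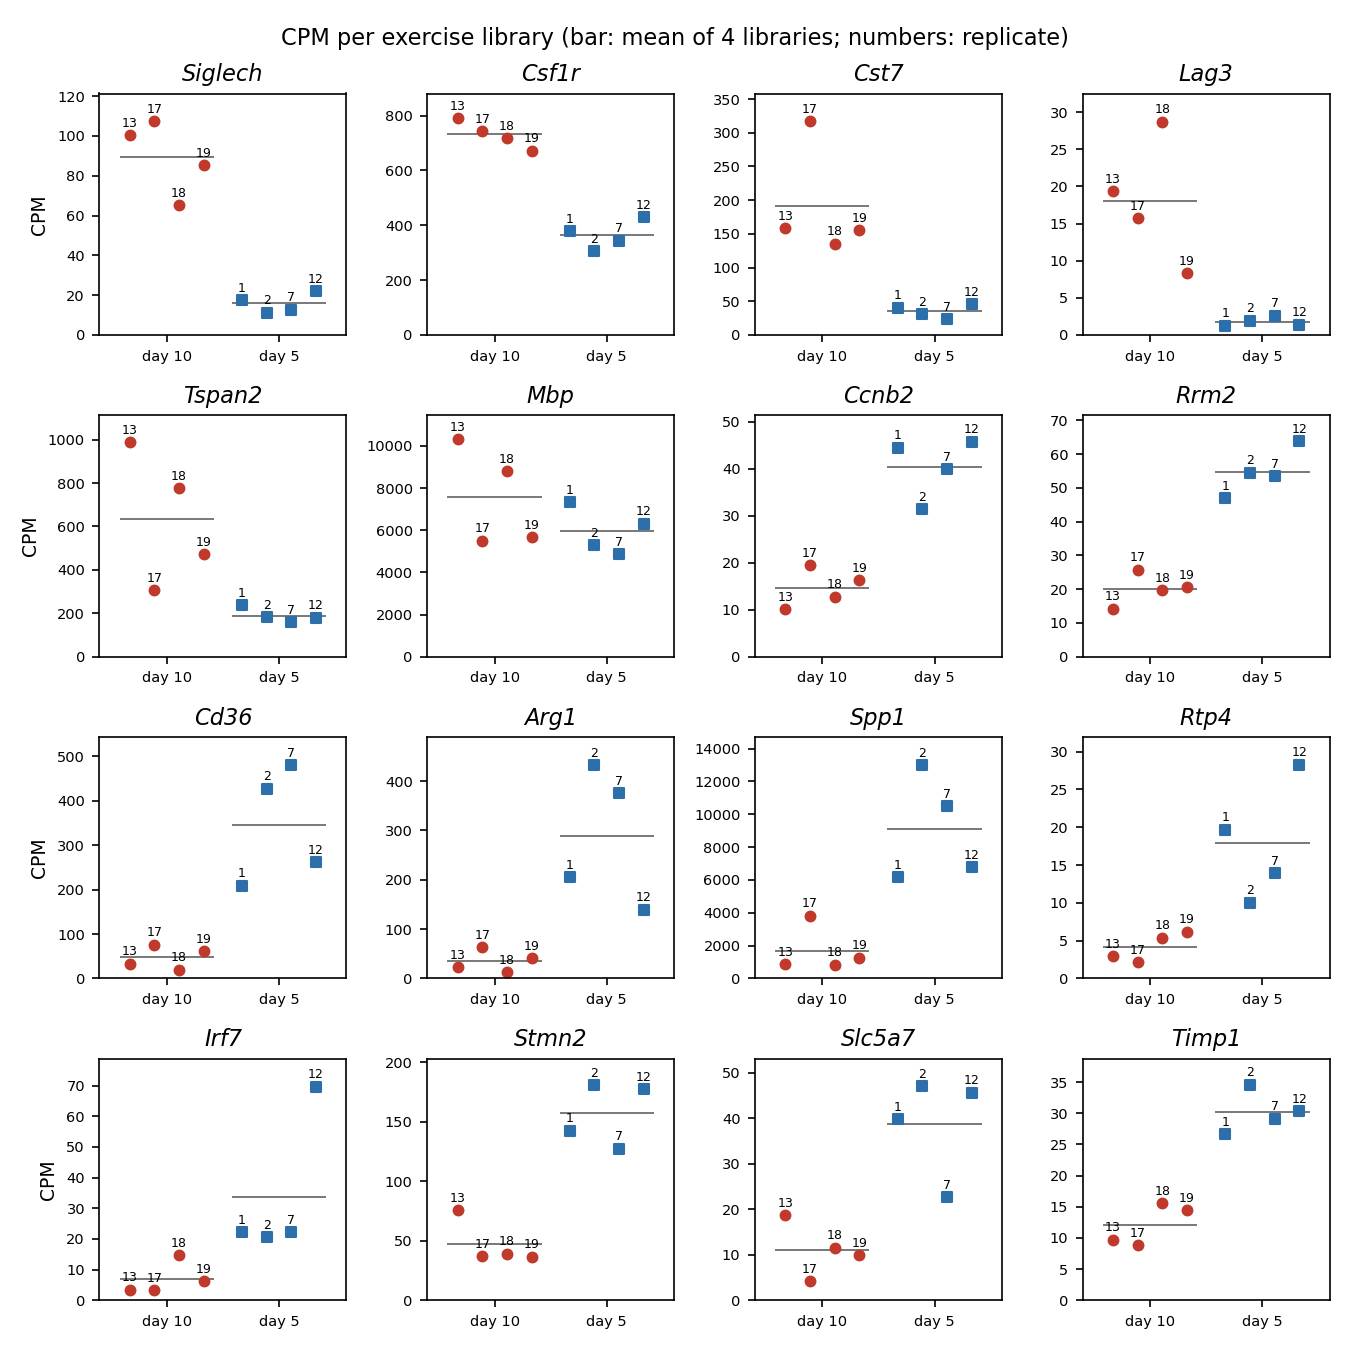
CPM of 16 genes in each exercise library, day 10 in red circles left of day 5 in blue squares, on linear axes that start at 0. Grey bars are means of 4 libraries and numbers the replicate. Siglech, Csf1r, Cst7, Lag3 and Tspan2 are higher and the other genes lower at day 10 without overlap of the days, except Mbp, whose days overlap.

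Genes of phagocyte activation split between the directions. Of 25 tested, 5 rose and 5 fell, with a median of 0.10 that turned to -0.12 without day 10 replicate 17. Cst7, a protease inhibitor of activated microglia, had 158, 317, 135 and 156 CPM at day 10 and 40.5, 30.8, 23.6 and 45.6 CPM at day 5. It rose 5.44-fold, and replicate 17 was about 2 times any other day 10 library. Ank, a transporter of pyrophosphate, rose at log2 1.21, the apolipoprotein gene Apoc1 at 1.80, the chemokine gene Ccl6 at 1.11 and the phagocytic receptor gene Axl at 0.77. Spp1, osteopontin, a secreted protein of phagocytes loaded with debris, had 872, 3827, 829 and 1272 CPM at day 10 and 6178, 13008, 10492 and 6759.8 CPM at day 5. Replicate 17 was here about 3 times the next day 10 library, and the log2 difference was -2.42 with it (SE 0.44, adjusted p = 0.00288) and -3.21 without it. The galectin genes Lgals1 and Lgals3 fell at -1.81 and -1.33, Cd5l at -0.87 [7 of 8] and the lysosomal membrane gene Cd68 at -0.66, the last in 1 of 8 refits. The receptors Trem2 at 0.40 and Clec7a at 0.28, which mark the activated state, did not pass. The number of lower genes of this list was 3 without day 5 replicate 2 and 10 without day 10 replicate 17, while the higher ones stayed at 5 or 6.

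Genes of lipid handling changed in both directions. Of 25 tested genes of lipid uptake, storage and efflux, 7 fell and 4 rose. Cd36, a scavenger receptor for oxidised lipid, had 32.9, 76.3, 19.8 and 61.4 CPM at day 10 and 209, 428, 481 and 262 CPM at day 5, 7.25-fold lower at day 10 by the fit (log2 -2.86, SE 0.37, adjusted p = 0.000321). Plin2, which coats lipid droplets, had 182, 281, 179.7 and 309 CPM at day 10 and 485, 764, 795 and 593 CPM at day 5. Neither gene had overlapping days. The fatty acid binding protein genes Fabp4 and Fabp5 fell at -1.88 and -1.19, the scavenger receptor gene Msr1 at -1.56 and the droplet gene Hilpda at -1.60 [6 of 8]. Apoe, the lipoprotein that carries cholesterol out of cells, rose instead: it had 12227, 13013, 13502 and 13089 CPM at day 10 and 8144, 8124, 7273 and 6363 CPM at day 5 (log2 0.79, SE 0.12, adjusted p = 0.000443), with an SD of 533 CPM at day 10 and 846 CPM at day 5. The cholesterol exporter gene Abca1 rose at 0.44 in 3 of 8 refits, Lpl at 0.49 in 5 and Dgat2, an enzyme of triglyceride synthesis, at 1.13 in 3. The number of higher genes was 1 without day 5 replicate 12 and 2 without day 10 replicate 17 or 18 or day 5 replicate 2. The receptor gene Nr1h3, which controls cholesterol export, was at -0.89 and did not pass.

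Of 30 tested lysosomal genes, 2 rose and 6 fell, at a median of -0.14, which was -0.30 without day 10 replicate 17 and -0.06 without replicate 18. The mannosidase gene Man2b1 rose at 0.67 and the membrane gene Laptm5 at 0.68, each in all 8 refits. Psap, the precursor of activators of sphingolipid breakdown, fell at -0.83, the galactosidase gene Gla at -1.20 and the proton pump genes Atp6v0d1 and Atp6v1a at -0.40 [7 of 8] and -0.45 [3 of 8]. The mean level of the list was highest of all 8 libraries in replicate 17: it was 7.50, 8.07, 7.41 and 7.72 at day 10 and 7.79, 7.88, 7.98 and 7.88 at day 5 on the log2 CPM scale. The count of lower genes was 2 without day 5 replicate 7, 3 without day 10 replicate 18 or 19 or day 5 replicate 2 and 12 without day 10 replicate 17.

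Markers of monocytes that arrive from the blood were lower. Of 18 tested markers of infiltrating monocytes among 20 listed, 11 fell and none rose, with all 18 estimates negative and a median of -0.91. Chil3, a chitinase-like protein of monocytes, had 1.30, 0.0976, 0.621 and 2.13 CPM at day 10 and 4.79, 12.9, 19.3 and 10.96 CPM at day 5. Ms4a6c, a membrane protein of monocytes, had 115, 221, 165 and 176 CPM at day 10 and 291, 313, 293 and 296 CPM at day 5 (log2 -0.82, SE 0.18, adjusted p = 0.00739). Lyz2, lysozyme, which microglia, monocytes and granulocytes share, had 4601, 4682, 5354 and 6571 CPM at day 10 and 7569, 10853, 11505 and 6928 CPM at day 5, with day 10 replicate 19 and day 5 replicate 12 closest to each other. Ccr2, the chemokine receptor by which monocytes leave the marrow, was at -1.0 and did not pass. The list's call count depended on single libraries: it was 3 without day 5 replicate 7, 5 without day 10 replicate 19 or day 5 replicate 2, 6 without day 10 replicate 13 and 7 without day 10 replicate 17 or day 5 replicate 12. Chil3, Thbs1 and Ms4a6c were called in all 8 refits and Gda in 7. The mean level of the list had no overlap of the days: it was 3.79, 3.71, 4.07 and 4.13 at day 10 and 4.48, 5.27, 5.57 and 5.23 at day 5 on the log2 CPM scale.

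Of 11 tested genes of alternatively activated macrophages among 18 listed, 5 fell and none rose. Arg1, arginase, the classical gene of this state, had 23.5, 63.2, 13.3 and 41.5 CPM at day 10 and 206, 432, 376 and 139 CPM at day 5, 8.15-fold lower (log2 -3.03, SE 0.53, adjusted p = 0.00246). Mrc1, the mannose receptor, had 3.35, 6.93, 3.55 and 6.09 CPM at day 10 and 10.3, 22.3, 22.6 and 12.7 CPM at day 5. Day 5 replicates 2 and 7 were the highest libraries of both genes. Stab1, Tgm2 and Clec10a also fell, at -0.62, -0.91 and -2.21 [3 of 8], and the count was 3 without day 10 replicate 18 or day 5 replicate 2 or 7 and 8 without day 10 replicate 17. Among 5 neutrophil markers tested of 11 listed, the collagenase gene Mmp8 fell at -2.43. S100a8, at -2.30 and without overlap, did not pass. Of 6 lymphocyte markers tested of 16 listed, Ighm, the heavy chain of immunoglobulin M, rose: it had 64.7, 71.1, 37.7 and 62.1 CPM at day 10 and 9.39, 3.80, 3.09 and 16.5 CPM at day 5 (log2 2.82, SE 0.51, adjusted p = 0.00294). The B cell genes Cd79b and Ms4a1 were at 0.86 and -0.84 and the T cell genes Lck and Cd4 at 0.91 and -1.17; none of them passed.

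Genes induced by interferon were lower at day 10. Of 45 tested, 22 fell and none rose, with a median of -1.04. Rtp4, an interferon-induced protein, had 2.98, 2.15, 5.41 and 6.19 CPM at day 10 and 19.7, 10.0, 13.9 and 28.3 CPM at day 5 (log2 -2.11, SE 0.42, adjusted p = 0.00438). Cmpk2, a mitochondrial nucleotide kinase, had 9.13, 2.25, 7.80 and 10.0 CPM at day 10 and 26.2, 14.1, 23.8 and 51.9 CPM at day 5. Ifitm3, which blocks virus entry, had 57.5, 83.9, 125 and 83.4 CPM at day 10 and 141, 223, 182 and 334 CPM at day 5. Day 5 replicate 12 was the highest of the 8 libraries in all 3 genes. It stood further apart in Irf7, the transcription factor that amplifies the response, which had 3.45, 3.22, 14.6 and 6.29 CPM at day 10 and 22.2, 20.5, 22.1 and 69.6 CPM at day 5, and in Rsad2, an antiviral enzyme, which had 14.6, 11.7, 18.5 and 17.96 CPM at day 10 and 118, 24.2, 70.3 and 169.6 CPM at day 5.

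Among the refits, the count of interferon genes called fell most without that library or any of 3 of day 10. It was 7 without day 5 replicate 12 and 11 without day 10 replicate 13, 17 or 19. With all libraries it was 22 by edgeR, 25 by DESeq2, 12 by limma and 10 by edgeR without a filter. The median was -0.73 without day 5 replicate 12 and lay between -1.17 and -0.91 in the other refits. Rtp4, Cmpk2, Ifitm3, Irgm1, Slfn2, Slfn5 and Oasl2 were called in all 8 refits. The list level was 3.01, 3.16, 3.88 and 3.57 at day 10 and 4.45, 3.93, 4.4 and 5.41 at day 5 in mean log2 CPM, with day 10 replicate 18 just below day 5 replicate 2. Many of these genes belong to families of similar copies (Ifit, Oas, Slfn, Gbp), between which reads can be shared. Of 13 tested genes of MHC class I presentation, which interferon also induces, edgeR, DESeq2 and limma called 0, and by edgeR 0 reached an unadjusted p under 0.05.

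The element to which the interferon-activated factor complex binds has as its core GAAA, any 2 bases, and GAAA again. It occurred within 250 bases before the start, on either strand, in 16 of 33 interferon genes with a promoter entry (48.5%), against 2.66% of all 11085. The 3 shown have the smallest p among called genes with it and a RefSeq start within 100 bases of the counted gene's start. Genes of 1 chromosome were again left out. The letters of the element or their reverse complement are in capitals, to let a reader see its place.
Gbp3, chr3:142559794-142560043, plus strand: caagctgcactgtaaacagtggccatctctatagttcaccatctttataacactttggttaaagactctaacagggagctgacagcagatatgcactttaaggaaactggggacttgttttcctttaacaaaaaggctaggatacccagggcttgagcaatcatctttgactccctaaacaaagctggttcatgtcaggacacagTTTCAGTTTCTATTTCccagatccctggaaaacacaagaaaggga
Stat2, chr10:128270248-128270497, plus strand: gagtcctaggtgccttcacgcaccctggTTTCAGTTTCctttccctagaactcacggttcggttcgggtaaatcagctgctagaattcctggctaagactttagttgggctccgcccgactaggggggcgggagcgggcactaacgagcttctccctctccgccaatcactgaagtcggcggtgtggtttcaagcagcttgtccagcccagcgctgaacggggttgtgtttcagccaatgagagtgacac
Ifit1, chr19:34640639-34640888, plus strand: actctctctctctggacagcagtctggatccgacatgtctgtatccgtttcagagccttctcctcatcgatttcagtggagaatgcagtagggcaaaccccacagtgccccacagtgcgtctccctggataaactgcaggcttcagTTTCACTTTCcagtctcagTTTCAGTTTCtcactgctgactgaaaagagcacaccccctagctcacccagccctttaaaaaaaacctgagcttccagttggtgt
They are RefSeq's, build GRCm38.p6, 5′ to 3′. In Gbp3, a guanylate-binding protein, 2 matches overlap, 45 and 39 bases before the start. In Ifit1, which binds viral RNA, 2 separate matches lie 104 and 85 bases before it, and in Stat2, a part of the factor complex itself, 1 lies 222 bases before it. Gbp3 fell at log2 -1.06, Stat2 at -0.86 and Ifit1 at -2.25, called in 7, 6 and 5 of 8 refits.

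**Figure D4:**
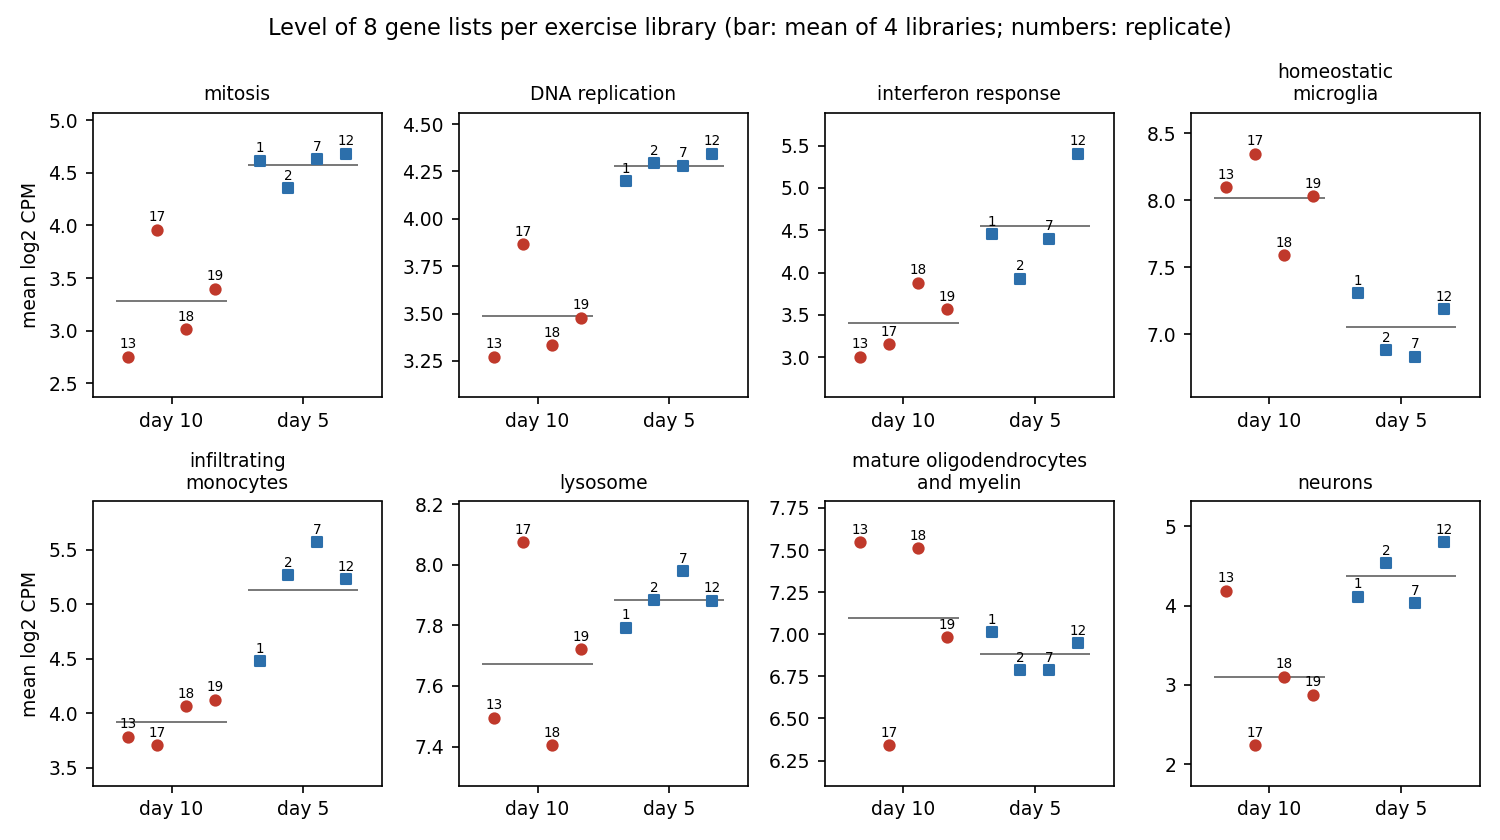
Mean log2 CPM of the tested genes of 8 lists in each exercise library, day 10 in red circles left of day 5 in blue squares. Grey bars are means of 4 libraries and numbers the replicate; axes do not start at 0. The mitosis, replication, microglia and monocyte levels do not overlap between the days, while those of lysosome, myelin and neurons do.

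Other immune lists held few calls. Of 22 tested inflammatory mediators, 3 rose and 1 fell: the endotoxin co-receptor gene Cd14 rose at 0.91, the cytokine gene Il1a at 0.84 and the cyclooxygenase gene Ptgs1 at 0.85 [3 of 8], while Alox5ap, needed for leukotriene synthesis, fell at -1.02. Il1b and Tnf were at 1.55 and 0.68 and did not pass. Of 21 tested chemokines and receptors, 2 rose and 4 fell. The monocyte attractant genes Ccl2 and Ccl7 fell at -1.73 and -1.59 and Ccr1, a chemokine receptor, at -1.95. Ccl9 rose at 1.12, and Cxcl13, which draws B cells, at 2.57 in 4 of 8 refits. Of 18 complement genes, 1 rose and 1 fell: Cfp, properdin, which stabilises the alternative pathway's convertase, fell at -2.23. The 3 C1q chains were between 0.27 and 0.32 and did not pass. Of 11 genes of MHC class II presentation, H2-Ob rose at 1.51 and the lysosomal reductase gene Ifi30 fell at -0.88. The class II chains H2-Aa, H2-Ab1 and H2-Eb1 were at -0.99, -0.24 and -0.44 and did not pass.

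Some myelin genes rose, and fewer did with replicate 17 than without it. Of 29 tested genes of mature oligodendrocytes and myelin, 5 rose and none fell, at a median of 0.16. Without replicate 17, 10 rose, at a median of 0.41; without day 10 replicate 13, 3 rose, at a median of 0.04, and without replicate 19, 5 rose, at 0.30. Tspan2, a membrane protein of oligodendrocytes that are forming myelin, had 989, 307, 776 and 472 CPM at day 10 and 238, 181, 158 and 179 CPM at day 5 (log2 1.75, SE 0.26, adjusted p = 0.000566). Opalin, a membrane protein of myelinating cells, had 99.8, 44.2, 74.9 and 48.7 CPM at day 10 and 27.9, 26.1, 30.4 and 16.9 CPM at day 5. Mog, on the outer surface of myelin, had 307, 108, 248 and 152 CPM at day 10 and 137, 116, 115 and 107 CPM at day 5. Replicate 17 was the lowest day 10 library in these 3 genes, above day 5 in Tspan2 and Opalin and within it in Mog. Mbp, the basic protein that compacts myelin, had 10335, 5502, 8796 and 5664 CPM at day 10 and 7332, 5294, 4855 and 6318 CPM at day 5. Replicates 17 and 19 lay inside the day 5 range, and Mbp did not pass (log2 0.35, SE 0.19, adjusted p = 0.257); without replicate 17 it was at 0.47 (adjusted p = 0.0973). The count of higher myelin genes was 3 without day 10 replicate 13 or 18 or day 5 replicate 2, 7 or 12 and 10 without day 10 replicate 17. Tspan2, Opalin and Nfasc, an adhesion protein of the node of Ranvier, were called in all 8 refits, and Mog and Cnp in 3 each. The list level was 7.55, 6.34, 7.51 and 6.98 at day 10 and 7.01, 6.79, 6.79 and 6.95 at day 5 in mean log2 CPM, so replicate 17 was the lowest of all 8 libraries.

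Lists of earlier stages of the lineage held few calls. Of 16 tested genes of oligodendrocyte precursors, Pdgfra, the growth factor receptor that drives their division, alone rose: it had 168, 209.6, 241 and 188 CPM at day 10 and 127, 143, 133 and 147 CPM at day 5 (log2 0.56, SE 0.11, adjusted p = 0.00511). The lineage factor genes Olig1, Olig2 and Sox10 were at 0.35, 0.11 and 0.07 and did not pass. Of 16 genes of premyelinating oligodendrocytes, 1 rose and 1 fell. Nkx2-2, a factor that starts differentiation, had 27.5, 18.4, 31.7 and 20.4 CPM at day 10 and 36.1, 44.2, 40.5 and 42.1 CPM at day 5. All its day 10 libraries lay below day 5, and replicates 17 and 19 were lowest. The small GTPase gene Rras2 rose at 0.60. Myrf, the factor that switches on myelin genes, was at 0.28, Bcas1 at -0.42 and Enpp6 at 0.25, and none of them passed with all libraries. Of 11 tested Schwann cell genes, the factor gene Egr2 was called, higher at 1.29 in 2 of 8 refits.

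Among 21 tested astrocyte genes, 3 rose and 1 fell. The glutamate transporter gene Slc1a3 rose at 0.49, the water channel gene Aqp4 at 0.56 and Glul, glutamine synthetase, at 0.38, while the receptor gene Fgfr3 fell at -0.47. Slc1a3 was called in all 8 refits, the others in 2, 2 and 4, and the number of higher genes was 5 without day 5 replicate 12, 3 without day 10 replicate 17 and 1 without any of the others. Of 17 tested genes of reactive astrocytes, 5 fell and none rose. Timp1, an inhibitor of metalloproteinases, had 9.69, 8.78, 15.5 and 14.4 CPM at day 10 and 26.6, 34.6, 29.1 and 30.4 CPM at day 5 (log2 -1.32, SE 0.20, adjusted p = 0.000570). Serpina3n, a protease inhibitor, had 278, 359, 415 and 382 CPM at day 10 and 796, 562, 739 and 599 CPM at day 5. Lcn2, an iron-binding secreted protein, had 5.12, 5.27, 5.85 and 9.23 CPM at day 10 and 5.42, 33.8, 28.0 and 30.6 CPM at day 5. Timp1 and Serpina3n had no overlap of the days, whereas Lcn2 was as low in day 5 replicate 1 as at day 10. The filament gene Vim and S100a10 fell at -0.82 and -1.06. Gfap, the filament by which astrocytes are stained, was at 0.06 (adjusted p = 0.889) and did not pass. Vim, Timp1 and Lcn2 are also made by cells other than astrocytes.

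Neuronal genes were lower at day 10. Of 30 tested, 12 fell and none rose, 29 estimates were negative, and the median was -1.02. Stmn2, a microtubule protein of growing axons, had 75.4, 37.2, 39.0 and 36.6 CPM at day 10 and 142, 181, 127 and 178 CPM at day 5 (log2 -1.74, SE 0.25, adjusted p = 0.000530). Snap25, a protein of synaptic vesicle release, had 221, 26.2, 49.4 and 44.6 CPM at day 10 and 137, 194, 135 and 281 CPM at day 5. Replicate 13 was the highest day 10 library of both by a wide gap, inside the day 5 range for Snap25, which did not pass (adjusted p = 0.267).

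Cholinergic genes, which mark motor neurons in the cord, were among the 12. Slc5a7, the choline transporter, had 18.6, 4.20, 11.5 and 9.84 CPM at day 10 and 39.7, 47.0, 22.6 and 45.6 CPM at day 5. Chat, which makes acetylcholine, fell at -1.84 and Slc18a3, which loads it into vesicles, at -2.06 [6 of 8]. Chodl, a membrane protein of a subset of motor neurons that was not on the list, had 0.279, 1.27, 1.24 and 0.203 CPM at day 10 and 10.1, 8.62, 4.82 and 13.2 CPM at day 5 and fell the most among genes averaging at least 5 CPM at either day without overlap (log2 -3.59, SE 0.63, adjusted p = 0.00176). The inhibitory neuron genes Gad1, Gad2 and Slc32a1 were at -0.51, -0.89 and -0.83 and did not pass. The number of neuronal genes called was 7 without day 10 replicate 19 or day 5 replicate 2 or 12 and 23 without day 10 replicate 13, while without replicate 17 it was 9, at a median of -0.83. The median without replicate 13 was -1.61. The list level was 4.19, 2.24, 3.10 and 2.88 at day 10 and 4.11, 4.53, 4.03 and 4.80 at day 5 in mean log2 CPM, so replicate 13 lay inside the day 5 range and replicate 17 was the lowest. Summed CPM of the list was 1280.4, 513, 783 and 649.6 at day 10 and 1408, 1709, 1201 and 1919.6 at day 5. How much grey matter each dissected piece held is not given in the labels, and its part in these differences was not tested.

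Of 24 tested endothelial genes, 4 fell and none rose, at a median of -0.38. Emcn, a mucin of small vessels, had 6.71, 5.17, 6.74 and 6.49 CPM at day 10 and 12.0, 17.2, 14.6 and 14.7 CPM at day 5 (log2 -1.22, SE 0.20, adjusted p = 0.000941). The days were far apart and the day 10 libraries close to each other. The adhesion gene Pecam1, the receptor gene Tek and the junction gene Esam fell at -1.02, -1.22 [7 of 8] and -0.74 [3 of 8]; the count was 2 without day 5 replicate 2. Cldn5, of the junctions of the blood-brain barrier, was at -0.42 and did not pass. Of 14 mural cell genes, 2 fell and 1 rose. Vtn, vitronectin, made by pericytes, had 43.6, 29.4, 61.3 and 69.1 CPM at day 10 and 19.2, 20.5, 28.1 and 29.1 CPM at day 5, with replicate 17 the lowest at day 10 and just above day 5. The smooth muscle gene Tagln and the peptidase gene Anpep fell at -1.02 and -1.0.

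Of 17 tested genes of fibroblasts and meninges, 2 rose and 1 fell, and of 38 collagens 3 rose and 1 fell. These counts stand near the shares over all genes tested, 5.17% higher and 4.9% lower. The list medians were 0.58 and 0.54. Without day 10 replicate 18 these medians were 0.17 and 0.23, and that of the collagens was 0.36 without replicate 19. Summed CPM of the fibroblast list was 1869.5, 1815, 5231 and 4458 at day 10 and 2163, 1959.6, 3124 and 1894 at day 5, so replicates 18 and 19 were the highest and the other day 10 libraries lay below all of day 5. Col15a1, a collagen of basement membranes that stands in both lists, had 46.8, 57.9, 85.1 and 95.5 CPM at day 10 and 28.0, 18.8, 21.6 and 34.2 CPM at day 5 (log2 1.47, SE 0.30, adjusted p = 0.00549). Replicates 18 and 19 were its highest libraries. Col27a1 and Col7a1 rose at 0.99 and 1.56 [4 of 8], Col11a1 fell at -0.78 [3 of 8], and Mgp, an inhibitor of calcification, rose at 1.45 [2 of 8]; of these 4, Col27a1 was called in all 8 refits and the others in 4 or fewer. The fibril collagens Col1a1, Col1a2 and Col3a1 were at 0.74, 0.50 and 0.58 and did not pass. Igfbp2, which binds insulin-like growth factors, fell at -1.63. Of 24 genes of matrix proteoglycans and remodelling, 3 rose and 3 fell. Postn, periostin, rose at 2.05 in 3 of 8 refits, the gelatinase gene Mmp2 at 0.96 in 7 and the brain proteoglycan gene Bcan at 0.66 in 3. Adam8, a protease of leukocytes, and Has2, a hyaluronan synthase, fell at -1.70 and -1.15 in all 8, and the protease inhibitor gene Timp4 fell at -0.63 in 3. The number of higher matrix genes was 5 without day 10 replicate 17, 1 without day 10 replicate 18 or day 5 replicate 2 or 7, and 0 without day 5 replicate 12.

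**Figure D5:**
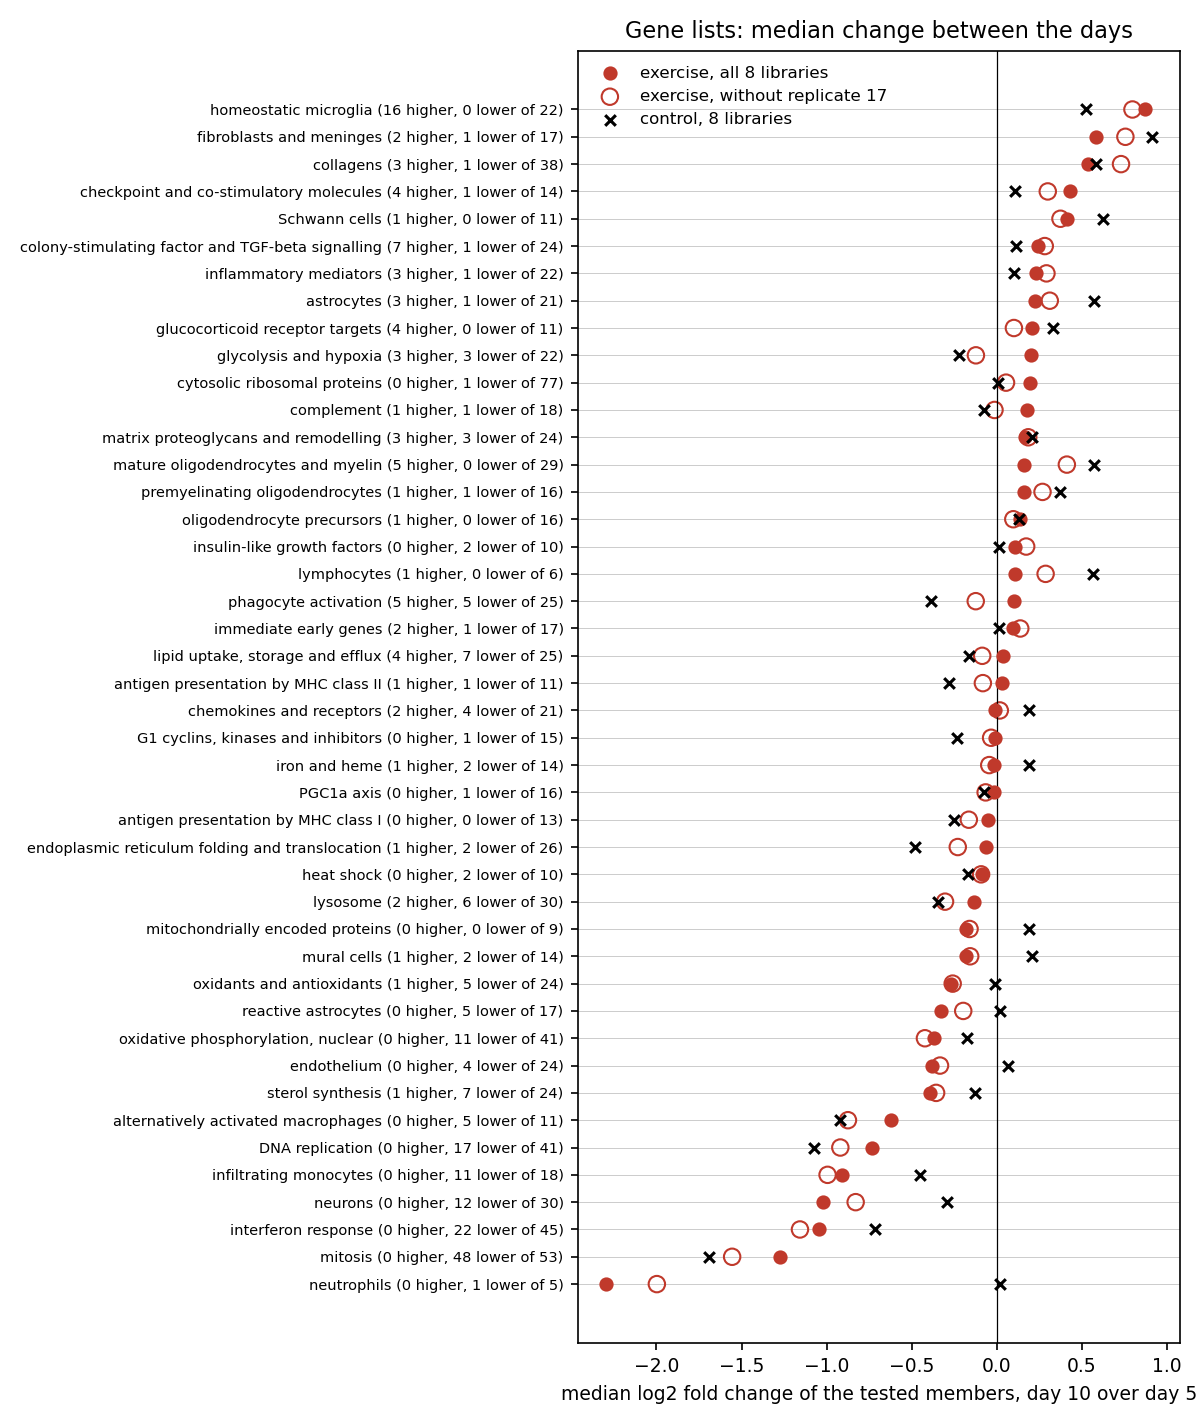
Median log2 difference, day 10 over day 5, of each list with 5 or more tested genes. Filled red circles are the 8 exercise libraries, open red circles leave out replicate 17 and black crosses are the 8 control libraries; labels give genes called in exercise. Among the filled circles microglia stand highest, and mitosis, interferon response and neurons, with the 5 tested neutrophil genes, stand lowest; among the crosses fibroblasts stand highest and mitosis lowest.

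Of 24 tested genes of sterol synthesis, 21 had negative estimates, 7 fell and 1 rose, at a median of -0.39. The enzyme genes Idi1, Fdft1, Sqle and Msmo1 fell at -0.76, -0.61, -0.61 and -0.56, each in all 8 refits, and Pmvk and Stard4 in fewer. The CCAAT box occurred in 15 of 17 sterol genes with a promoter entry (88.2%), against 36.0% of all.

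Of 41 nuclear genes of oxidative phosphorylation, 11 fell and none rose, at a median of -0.37. Cyc1 of complex III, Cox5b of complex IV and Atp5b of the ATP synthase fell at -0.54, -0.53 and -0.39, each in all 8 refits; the count was 7 without day 10 replicate 18 or 19 or day 5 replicate 2 or 12. Of the 9 tested protein genes of the mitochondrial genome edgeR, DESeq2 and limma called 0, and by edgeR 1 (mt-Nd1) reached an unadjusted p under 0.05; without day 10 replicate 13 edgeR called 2 lower. Of 16 genes of the PGC1a axis, which governs mitochondrial biogenesis, Cpt1a, the gate for fatty acids into mitochondria, alone was called, at -0.56. Ppargc1a itself was at -0.24 (adjusted p = 0.637). Of 22 genes of glycolysis and hypoxia, 3 rose and 3 fell. Hk2, the inducible hexokinase, had 156, 249.5, 124 and 126 CPM at day 10 and 109, 95.0, 77.7 and 97.6 CPM at day 5 (log2 0.79, SE 0.19, adjusted p = 0.0134), with replicate 17 the highest by far. Pdk1 and Hif1a rose at 0.65 [4 of 8] and 0.44 [3 of 8], and Pfkp, Eno1 and Pgam1 fell at -0.56, -0.50 [2 of 8] and -0.55 [2 of 8]. The lower ones numbered 8 without day 10 replicate 17 and 1 or 2 without any other library. The higher ones numbered 5 without day 10 replicate 13 and 1 without day 10 replicate 17 or day 5 replicate 2, 7 or 12.

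Among stress genes, Hmox1, which breaks down heme, fell at -1.88 and Ftl1, a ferritin chain, at -1.07, each in all 8 refits. Hpgd, an enzyme of prostaglandin breakdown that stood in the list of iron and heme, rose at 0.67 in 3. The 14 genes of that list gave no other call. Of 24 genes of oxidants and antioxidants, 5 fell and 1 rose: Txn1 and Prdx2, thioredoxin and a peroxiredoxin, fell at -0.98 and -0.78. The lower ones numbered 2 without day 10 replicate 19 or day 5 replicate 2 or 7 and 9 without day 5 replicate 1. Of 26 genes of the endoplasmic reticulum, Pdia4 and Pdia6, which fold proteins, fell at -0.48 [1 of 8] and -0.64 and Herpud1 rose at 0.56 [5 of 8]; 5 fell without day 10 replicate 17. The chaperone genes Hsp90aa1 and Hspd1 fell at -0.36 and -0.43 among 10 heat shock genes, in 6 and 5 of 8 refits. Of 77 cytosolic ribosomal protein genes, Rps27l alone was called, lower at -0.66.

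Of 11 genes in the list of glucocorticoid receptor targets, which also holds the receptor gene Nr3c1, 4 rose and none fell. Fkbp5, a co-chaperone of the receptor and one of its targets, had 212, 259, 208 and 200 CPM at day 10 and 170.4, 151, 104 and 152 CPM at day 5 (log2 0.61 [7 of 8], SE 0.16, adjusted p = 0.0200). Day 5 replicate 7 was the lowest library, and the days did not overlap. The clock gene Per1 rose at 1.23, the factor gene Klf9 at 0.70 [7 of 8] and Nr3c1, the receptor itself, at 0.44. Tsc22d3 and Sgk1, other targets, were at -0.14 and 0.21 and did not pass. Of 17 immediate early genes, Egr1 and Btg2 rose at 1.01 [7 of 8] and 0.89 and Jun fell at -0.51 [7 of 8]. Of 10 genes of insulin-like growth factors, Igf2r and Igfbp3 fell at -0.97 and -0.99.

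Several of the strongest calls lay outside the lists. Spata13 and Plekha1 were the higher genes with the smallest p. Spata13, a guanine nucleotide exchange factor (chr14:60634001-60764556), averaged 140.0 ± 5.01 CPM at day 10 and 58.0 ± 10.3 CPM at day 5 (SD, n = 4 each; log2 1.27, SE 0.12, adjusted p = 4.09e-05). Plekha1, an adaptor that binds membrane lipids (chr7:130865756-130913312), averaged 261 ± 42.3 CPM at day 10 and 110.1 ± 14.7 CPM at day 5. Ifngr1, a receptor chain for interferon gamma, rose at 0.81, Smap2 at 1.14 and Pnrc1 at 0.85. Cd24a, a surface protein of immature neurons and blood cells (chr10:43579169-43584262), led the lower genes: it averaged 47.3 ± 11.8 CPM at day 10 and 175 ± 24.4 CPM at day 5 (log2 -1.89, SE 0.21, adjusted p = 5.23e-05). Kpna2, which carries proteins into the nucleus, fell at -1.05. Among the largest differences, the coagulation factor genes F7 and F10 fell at -3.41 and -2.83, the neuropeptide gene Calca at -3.13 in 4 of 8 refits, and the transporter gene Slc10a4, found with acetylcholine transporters in neurons, at -2.83. Siglecf and Kank4 rose at 2.35 and 2.28. Of the genes named since Spata13, only Calca was called in fewer than 8 refits.

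The control lesions, from other animals kept with a locked wheel, were fitted in the same model. Between the days 855 genes rose in them (5.66%) and 1003 fell (6.64%). Of the 53 mitosis genes 48 fell in exercise and 50 in control lesions, and of the 41 replication genes 17 fell in exercise and 33 in control lesions. Of the 22 microglial genes 16 rose in exercise and 10 in control lesions. Of the 45 interferon genes 22 fell in exercise and 2 in control lesions, at medians of -1.04 and -0.72; without exercise day 5 replicate 12, 7 fell in exercise lesions, at a median of -0.73. Of 30 neuronal genes 12 fell in exercise and 4 in control lesions, at medians of -1.02 and -0.29; without one exercise library the exercise count was 7 to 23. Of 29 myelin genes 5 rose in exercise (10 without day 10 replicate 17) and 12 in control lesions, of 21 astrocyte genes 3 rose in exercise and 9 in control lesions, and of 26 genes of the endoplasmic reticulum 2 fell in exercise (5 without day 10 replicate 17) and 15 in control lesions. These counts are side by side only, since passing the threshold in only one of 2 comparisons does not make a gene different between them.

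The difference itself, the day difference in exercise minus that in control, was tested gene by gene. edgeR called 0 of 15096 genes (0%), with 1376 at an unadjusted p under 0.05; limma called 0 (1370 unadjusted) and DESeq2 called 18, of which 10 were positive and 8 negative (1501 unadjusted). Without day 5 replicate 1, edgeR called 2, Lcn2 at -2.88 (adjusted p = 0.00321) and Vcam1 at -1.01 (adjusted p = 0.0487). Fkbp5, the gene with the smallest p and a positive difference, rose in exercise (log2 0.61 [7 of 8]) and fell in control lesions (-0.60, SE 0.16, adjusted p = 0.0173), a difference of 1.21 (SE 0.22, adjusted p = 0.296). Its control libraries, replicates 2, 3, 4 and 5 at day 10 and 1, 2, 5 and 6 at day 5, had 89.5, 81.4, 119 and 135 CPM at day 10 and 161, 169.9, 146 and 168 CPM at day 5. Vcam1, a vascular adhesion molecule, fell in exercise (-0.66) and was at 0.25 in control lesions, a difference of -0.91 (SE 0.17, adjusted p = 0.296). Acer3, a ceramidase, and Pag1, an adaptor of lymphocyte and myeloid receptors, differed by 0.99 and 1.02, and Hebp2, a heme-binding protein, by -1.16, each at an adjusted p of 0.400. Gm16685, an antisense transcript of low level, had the largest of these estimates (-5.38, SE 1.07) and was not called between the exercise days. These values are edgeR's. DESeq2 called Fkbp5 and Vcam1 (adjusted p = 0.00195 each), Hebp2 (0.0174), Pag1 (0.02025) and Acer3 (0.0206) among its 18 genes, but not Gm16685. No gene therefore passed as different between exercise and control lesions in edgeR's quasi-likelihood test with all libraries, and that does not show that the day differences were equal.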

How the data were processed

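Raw counts per gene were deposited by the authors for 16 libraries. Per the file headers, featureCounts 1.5.0-p1 counted reads by strand over Ensembl GRCm38 genes, so antisense genes were kept apart; the submitters' processing notes name FastQC 0.11.4, TopHat2 2.0.10 and Bowtie 1.1.2. Gene symbols came from GENCODE M21 (45143 of 46078 gene IDs), and gene positions from the count table.

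The counts were filtered (filterByExpr, minimum count 10, minimum total 15), scaled by TMM and fitted with 1 mean per group over all 16 libraries (12 residual degrees of freedom, common biological coefficient of variation 0.236) by edgeR 4.0.16 in R 4.3.3, with the robust quasi-likelihood test and Benjamini-Hochberg adjustment. Log2 differences are edgeR's, with SE taken as the size of the log2 difference over the square root of F; SD is over 4 libraries. The code was tested on simulated data. Alternatives were limma 3.58.1 (voom with quality weights), DESeq2 1.42.0, other size factors, no filter (26253 genes), a mean of at least 5 CPM (10914 genes), no mitochondrial genes (15080 genes), other library sets, and leaving out each library in turn; library sets and left-out libraries kept the 15096 genes. The 47 gene lists held 1064 entries, of which 1 was not in the table; members under the filter were not tested. Genes were named by rule: the 12 with the smallest p in each direction and the 10 with the largest change among called genes whose days did not overlap (for the latter, an average of at least 5 CPM), and up to 6 called members of each list, with other members given by value. The comparison, the lists and the tests were chosen with earlier results of these data known. Promoter windows are RefSeq's, and motif shares are descriptions. Depth was 8125981 to 11089749 counts per exercise library. Amplification precedes counting, and no molecular identifiers were given, so read counts are not counts of molecules. The authors' tables of their own comparisons were not used. Results for some genes are not reported here.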

Additional observations from a re-analysis of the deposited data

Results flagged for a closer look

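Gaps between the extreme library and its nearest neighbour, as a share of the group's range, were tested in 196 groups of 4 exercise libraries. The threshold was Dixon's 95% critical value, which chance passes in about 5% of groups. Of the 196 groups 13 passed, which is near that share. At day 10, replicate 17 stood alone as the highest library for Cst7 (0.875) and Spp1 (0.852) and as the lowest for Emcn (0.843). Replicate 13 stood alone as the highest for the neuronal genes Stmn2 (0.938) and Snap25 (0.881), and it stood apart in the mean level of the G1 cyclins, kinases and inhibitors (0.854) and of the mitochondrially encoded proteins (0.895). At day 5, replicate 12 stood alone as the highest for Irf7 (0.966) and apart in the level of matrix proteoglycans and remodelling (0.836). Replicate 2 stood apart in the number of genes with at least 1 count (0.916), in the level of ependymal genes (0.857) and in that of checkpoint and co-stimulatory molecules (0.854), and replicate 7 in the level of glucocorticoid receptor targets (0.919). What sets these libraries apart was not tested.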

How the results depend on the processing

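Between the exercise days 1520 genes were called, 781 higher and 739 lower. Fitting the 8 exercise libraries alone gave 863 calls, 436 higher and 427 lower, and fitting 7 of them without replicate 17 gave 1293. DESeq2 gave 2136, limma 1644 and no filter on low counts 1248. Leaving out each library of the series in turn gave 992 to 1843 calls, 490 to 889 higher and 495 to 954 lower, the lowest total without day 5 replicate 7 and the highest without day 10 replicate 17. For the difference of the day differences between exercise and control, edgeR called 0 genes, DESeq2 18 (10 higher and 8 lower) and the refits that left out a library 0 to 2 (0 higher and 0 to 2 lower), the 2 being without exercise day 5 replicate 1. The cause of these changes was not tested. Of 188 called genes that were followed, 0 reversed under any alternative. They were picked from the calls of these same libraries, so this is no separate evidence of their direction. The call was lost by 39 with the 8 exercise libraries alone, 36 without day 5 replicate 2 and 32 without day 5 replicate 7. It was lost by 17 without a filter, 12 in limma, 11 without replicate 17 and 0 in DESeq2. No paired analysis was possible because exercise day 10 and exercise day 5 share no replicate numbers. With 4 libraries a day, genes of low level and high spread, such as the neutrophil markers, were measured imprecisely.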

Other observations

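Genes of the annotation class TEC, transcript models that await experimental support and have no known product, were called only higher. Of 293 tested, 40 rose (13.7%) and none fell, at a median log2 difference of 0.90, while of 13492 protein-coding genes 682 rose and 716 fell. The summed level of the TEC genes was 1411, 1075, 1216 and 1784 CPM at day 10 and 1076, 818, 909 and 1028 CPM at day 5, so replicate 17 lay inside the day 5 range. In control lesions 23 of them rose and 3 fell. Of 31 sense intronic transcripts 4 rose (12.9%) and none fell, at a median of 1.0795. Among long intergenic RNAs 14 of 298 rose and 3 fell. Gm37472 and Gm43088, both TEC genes, and the pseudogene Gm15753 were among the 10 largest rises without overlap, at log2 2.87, 2.52 and 2.60; the place of these models in introns or near other genes was not tested.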
